A study of Mus musculus with 7 samples.

Results

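The 10 genes described here encode the core proteins of elastic fibres and of the fibrillin microfibrils on which those fibres form. They were chosen with earlier results of these data known, so member counts and ranks set beside all genes are descriptive only. They were taken by symbol from the gene table, and all 10 were found among its 29955 genes: Eln, Fbn1, Fbn2, Mfap2, Mfap4, Mfap5, Fbln1, Fbln2, Fbln5 and Emilin1. All 10 also passed the filter on low values. Elastin, the product of Eln, is secreted as a soluble monomer, gathered on microfibrils of fibrillin and crosslinked by lysyl oxidases into a lasting rubber-like polymer. Fibulins and emilin sit where elastin meets the microfibril, the microfibril-associated proteins bind fibrillin or elastin, and microfibrils also hold latent growth factors of the TGF-beta and BMP families. Fibroblasts and smooth muscle cells are the main sources of these proteins in connective tissue and vessel walls.

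The 7 RNA libraries came from mouse embryonic fibroblasts (MEFs) of the C57BL/6 strain, all without p53. The 3 control libraries were p53 KO, 2 libraries were p53Mdm2 KO and so lacked Mdm2 as well, and 2 libraries were p53KO Mdm2 C462A KI, called C462A knock-in from here on. Mdm2 is best known as the ligase that tags p53 with ubiquitin for degradation. The changed residue of the C462A allele sits in its RING domain, on which ligase activity depends. The study's title places the work in the p53-independent action of Mdm2 through Polycomb repressor complex 2. The labels do not describe the alleles or the number of passages, nor whether the replicates are independent embryos or cultures, so p-values measure the spread between these libraries, which may be partly technical. No genotype with p53 was part of the series, and every difference is therefore one between p53-null cells.

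Library totals lay between 28.5 and 41.5 M reads (M for 1000000 reads), and the lowest count of any member in any library was 169 reads (Mfap5 in C462A knock-in replicate 1), so counting error was small for all 10 genes. Levels are given as normalized reads, recovered from the authors' log2-like values. A principal component with 44.3% of the variance set p53 KO replicate 1 apart from the other 6 libraries, and a further one with 24.9% set C462A knock-in replicate 2 apart. Member values whose sign turned without either library are given with and without it, some only as ranges in the closing section. Counts with an unadjusted p under 0.05 are also given without both libraries for the members, the pathway genes together and the lysyl oxidases in the C462A knock-in. Counts by overlap, sign or size of the difference are given only with all 7. All 11 fibroblast marker genes on the list used passed the filter, and their summed level ran from 540319 to 1586465 normalized reads over the 7 libraries. In p53 KO replicate 1, the markers Thy1 and Col1a2 had 99.1 and 3456 normalized reads, against 6592 or more and 175050 or more in each of the other 6 libraries. Other fibroblast markers were mixed there. Vim (155416), S100a4 (37554) and Col3a1 (166679, against 166438 in replicate 3) had their highest values in that library. Col1a1 (457995), Pdgfrb (16538), Fap (221.8) and Lum (55.4) were at their lowest of the 3 p53 KO libraries. Col1a1 nevertheless lay above all 4 libraries with altered Mdm2. Pdgfra (6863) and Dcn (2024) lay between p53 KO replicates 2 and 3. In such bulk RNA, fewer cells of a type and less RNA per cell cannot be told apart.

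Eln and Mfap5 were lower in each of the 4 libraries with altered Mdm2 than in each of the 3 p53 KO libraries. Of all tested genes, 9.2% were lower without overlap in p53Mdm2 KO and 14.4% in the C462A knock-in, each comparison taken alone. The share of genes lower without overlap in both was not computed. Eln overlapped between the Mdm2 genotypes. Fbn2 was lower in both p53Mdm2 KO libraries than in any p53 KO library, but 1 C462A knock-in library lay within the p53 KO range. The other 7 members overlapped between p53 KO and each Mdm2 genotype. No member passed the adjusted threshold of 0.05 in limma in any of the 3 comparisons, and neither did any of the 16900 genes tested (0% called in each comparison).

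**Figure D1:**
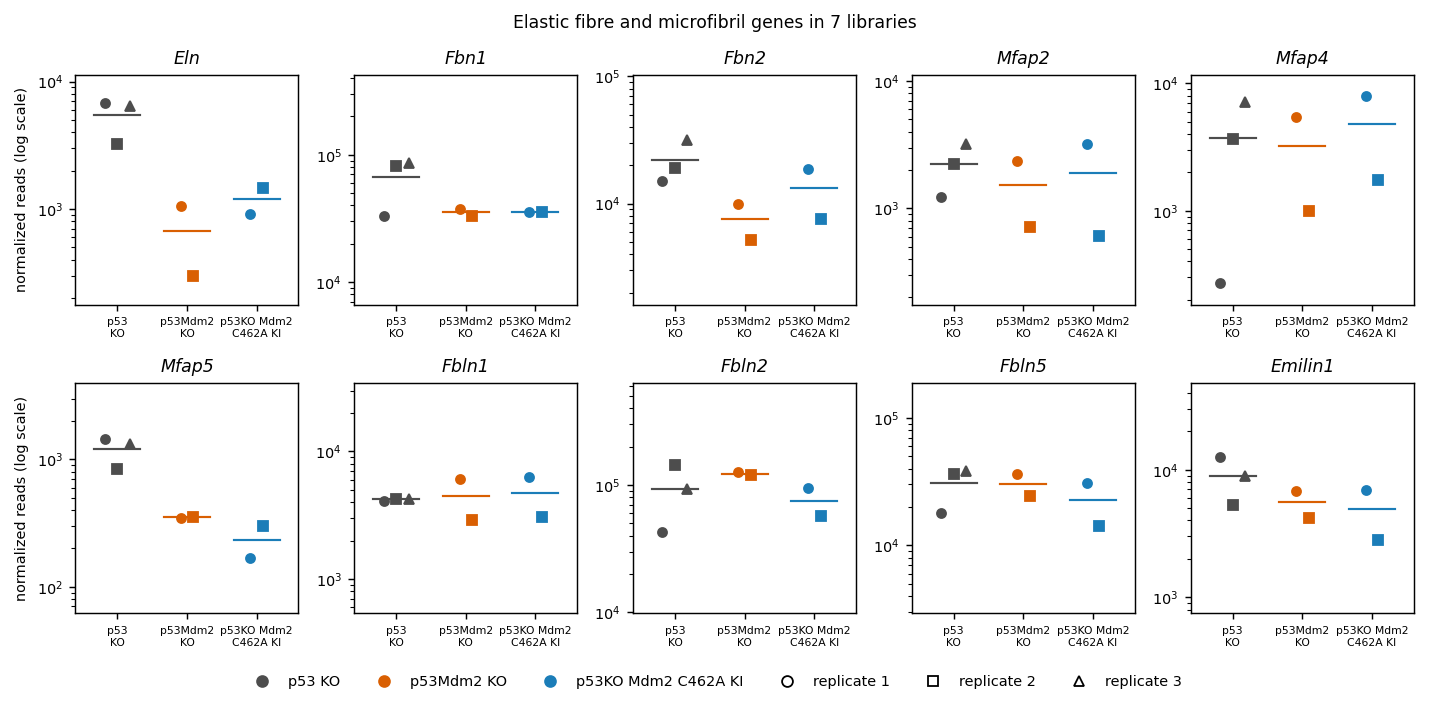
Normalized reads (log scale, every panel spanning the same number of fold) of the 10 members in each library, by genotype; symbols give the replicate number and bars the group mean. Eln and Mfap5 of p53 KO lie above all 4 other libraries, while the Mfap4 value of p53 KO replicate 1 (271.8) lies far below the other 6.

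Eln encodes tropoelastin, the monomer of the elastic core. It had 6802, 3239 and 6400 normalized reads in p53 KO replicates 1, 2 and 3, 1053 and 296.1 in p53Mdm2 KO replicates 1 and 2, and 920.2 and 1462 in C462A knock-in replicates 1 and 2. All p53 KO libraries thus stood above all libraries with altered Mdm2, and the 2 p53Mdm2 KO libraries differed between themselves by more than the C462A knock-in pair. The mean in p53Mdm2 KO was 8.12-fold lower than in p53 KO, a log2 difference of -3.17 (SE 0.58, 95% interval -4.57 to -1.76, limma adjusted p = 1.00; 0.497 to 1.00 over 18 alternatives). Its unadjusted p ranked 13 among the 16900 genes of that comparison. The C462A knock-in mean was 4.60-fold lower, a log2 difference of -2.15 (SE 0.58, interval -3.55 to -0.74, limma adjusted p = 0.437; 0.287 to 0.999 over the alternatives). Between both Mdm2 genotypes the values overlapped (log2 difference 1.02 for C462A knock-in minus p53Mdm2 KO, interval -0.52 to 2.55). Eln stayed below p53 KO in all 18 alternatives of both comparisons, with log2 differences from -4.05 to -2.28 for p53Mdm2 KO and from -2.49 to -1.82 for the C462A knock-in.

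The fibrillins form the microfibril itself, Fbn1 as the main form in adult tissue and Fbn2 as the form typical of the embryo. Fbn1 had 33153, 80997 and 86245 normalized reads in p53 KO replicates 1, 2 and 3. It had 37822 and 32846 in p53Mdm2 KO and 35837 and 35804 in the C462A knock-in. The 4 libraries with altered Mdm2 and p53 KO replicate 1 all lay between 32846 and 37822, and p53 KO replicates 2 and 3 stood above them. The log2 difference from p53 KO was -0.80 (interval -1.86 to 0.26) in p53Mdm2 KO and -0.78 (interval -1.84 to 0.28) in the C462A knock-in. Without p53 KO replicate 1 these became -1.25 and -1.22, limma adjusted p = 0.672 and 0.305. Over the alternatives the adjusted p of Fbn1 in p53Mdm2 KO ran from 0.443 to 1.00.

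Fbn2 had 15098, 19198 and 31827 normalized reads in p53 KO, 9932 and 5216 in p53Mdm2 KO, and 18769 and 7573 in the C462A knock-in. Both p53Mdm2 KO libraries lay below all p53 KO libraries, while C462A knock-in replicate 1 lay inside the p53 KO range and replicate 2 below it. The mean in p53Mdm2 KO was 2.91-fold lower, a log2 difference of -1.54 (SE 0.52, interval -2.78 to -0.30, limma adjusted p = 1.00; 0.522 to 1.00 over the alternatives). For the C462A knock-in the log2 difference was -0.81 (interval -2.06 to 0.43), and it moved to -0.16 without replicate 2 and to -1.47 without replicate 1.

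Mfap2 and Mfap5 encode the microfibril-associated glycoproteins MAGP-1 and MAGP-2, small relatives that bind fibrillin. Mfap5 had 1440, 836.3 and 1325 normalized reads in p53 KO, 348.9 and 354.1 in p53Mdm2 KO, and 169.4 and 299.9 in the C462A knock-in. The groups did not overlap in any of the 3 comparisons, with p53 KO highest and the C462A knock-in lowest. The mean in p53Mdm2 KO was 3.41-fold lower than in p53 KO, a log2 difference of -1.68 (SE 0.33, interval -2.48 to -0.87, limma adjusted p = 1.00; 0.41 to 1.00 over the alternatives). For the C462A knock-in it was 5.12-fold lower, a log2 difference of -2.27 (SE 0.33, interval -3.08 to -1.47, limma adjusted p = 0.437; 0.156 to 0.999 over the alternatives). These were the 18th and the 12th smallest unadjusted p of their comparisons. The difference between both Mdm2 genotypes was -0.59 (interval -1.47 to 0.29), and it moved to -0.22 without C462A knock-in replicate 1 and to -0.97 without replicate 2.

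Mfap2 did not separate the genotypes. It had 1235, 2225 and 3223 normalized reads in p53 KO, 2361 and 710.7 in p53Mdm2 KO, and 3198 and 610.3 in the C462A knock-in. Replicate 2 of each Mdm2 genotype was lower than every other library, and the replicate 1 libraries lay inside the p53 KO range. The log2 differences of -0.66 and -0.55 from p53 KO had intervals of -2.66 to 1.33 and -2.55 to 1.45. They turned to 0.19 without p53Mdm2 KO replicate 2 and to 0.62 without C462A knock-in replicate 2.

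Mfap4 encodes a fibrinogen-related protein that binds elastin and fibrillin. Of all members it varied most, over 29.0-fold. It had 271.8, 3658 and 7147 normalized reads in p53 KO, 5412 and 986.2 in p53Mdm2 KO, and 7891 and 1747 in the C462A knock-in. The groups overlapped, and p53 KO replicate 1 was the lowest library. The differences of 0.24 (interval -3.36 to 3.85) and 0.92 (interval -2.68 to 4.53) from p53 KO turned to -1.13 and -0.46 without that library. They also turned, to -0.97 and -0.16, without replicate 1 of the respective Mdm2 genotype. Among the 16900 tested genes, 98.2% had a smaller log2 range over the 7 libraries than Mfap4, and 97.6% a smaller one than Eln.

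The fibulins bridge elastin, microfibrils and basement membranes, and Fbln5 in particular guides the assembly of elastic fibres. Fbln5 had 17989, 36070 and 38328 normalized reads in p53 KO, 36039 and 24159 in p53Mdm2 KO, and 30750 and 14227 in the C462A knock-in. Fbln1 had 4112, 4247 and 4260 normalized reads in p53 KO, the tightest p53 KO values of any member, against 6066 and 2898 in p53Mdm2 KO and 6330 and 3083 in the C462A knock-in. In each Mdm2 genotype Fbln1 thus lay above p53 KO in replicate 1 and below it in replicate 2. Its differences from p53 KO were near 0, with intervals of -0.97 to 0.96 and -0.89 to 1.03. The interval of Fbln5 was -1.13 to 1.16 in p53Mdm2 KO and -1.62 to 0.66 in the C462A knock-in. Intervals this wide do not show equal levels.

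Fbln2 was the most abundant member per length of transcript in every genotype. It had 42919, 143795 and 93390 normalized reads in p53 KO, 125735 and 120209 in p53Mdm2 KO, and 94289 and 56672 in the C462A knock-in. Both p53Mdm2 KO libraries lay above both C462A knock-in libraries, a log2 difference of -0.75 for C462A knock-in minus p53Mdm2 KO (interval -2.17 to 0.67, limma adjusted p = 1.00). The differences from p53 KO were 0.56 and -0.19. The former was 0.09 without p53 KO replicate 1. The latter turned to 0.21 without p53 KO replicate 2 and to 0.18 without C462A knock-in replicate 2.

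Fbln1 and Fbln5 were the second most alike pair of members across the libraries (the mean absolute difference of their centred log2 values was 0.40, against a median of 0.73 over the 45 pairs). Their promoters are shown because they are the closest pair for which a window lay wholly outside annotated exons. RefSeq's promoter table (GRCm38.p6, a later build than the mm9 of the submitters' notes) matched 6 of the 10 members. It held a pair of windows for each of these genes, and the one that overlaps exons is not shown. The 250 bases before the other start read 5′ to 3′ as follows, with GC boxes (GGGCGG) and CCAAT boxes (CCAAT) in capitals, searched on both strands:
Fbln5, chr12:101819120-101819369, minus strand: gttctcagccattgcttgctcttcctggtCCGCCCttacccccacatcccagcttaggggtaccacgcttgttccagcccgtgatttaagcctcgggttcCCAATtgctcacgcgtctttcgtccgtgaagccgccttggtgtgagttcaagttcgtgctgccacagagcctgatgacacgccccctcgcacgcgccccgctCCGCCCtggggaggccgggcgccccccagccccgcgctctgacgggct
Fbln1, chr15:85205699-85205948, plus strand: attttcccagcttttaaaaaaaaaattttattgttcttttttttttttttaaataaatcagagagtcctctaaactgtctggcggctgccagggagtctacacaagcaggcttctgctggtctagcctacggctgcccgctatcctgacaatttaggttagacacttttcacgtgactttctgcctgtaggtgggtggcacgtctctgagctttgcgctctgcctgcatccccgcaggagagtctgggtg

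The Fbln5 window held 2 GC boxes and 1 CCAAT box, at 65.2% G and C, and the Fbln1 window held neither, at 46.4%. Neither window held a TATA box (TATAAA), an AP-1 site (TGANTCA) or a TEAD site (GGAATG). Of 32851 windows of the same length in the table, 32.7% held a GC box, 33.9% a CCAAT box, 12.4% a TATA box, 6.75% an AP-1 site and 12.6% a TEAD site. The window of Fbln1 that is not shown held 1 GC box, and that of Fbln5 held none of the 5 motifs. Matches describe these letters only.

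Emilin1 encodes a glycoprotein at the border of elastin and microfibril that also restrains TGF-beta processing. It had 12589, 5300 and 8977 normalized reads in p53 KO, 6870 and 4195 in p53Mdm2 KO, and 6959 and 2822 in the C462A knock-in. Each Mdm2 genotype had 1 library inside the p53 KO range and 1 below it. The log2 differences were -0.65 (interval -1.88 to 0.58) and -0.92 (interval -2.16 to 0.31). With p53 KO replicate 1 and C462A knock-in replicate 2 both left out, the latter was 0.01.

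Counted together, 7 of the 10 members had a log2 difference below 0 in p53Mdm2 KO against p53 KO, with a median of -0.66 against a median of -0.01 over all genes tested, of which 51.8% were below 0. Eln, Fbn2 and Mfap5 were the 3 members whose groups did not overlap, all lower, where 9.2% of all tested genes were lower without overlap; 0 members were higher without overlap, against 8.99%. The same 3 also had log2 differences of -1 or less (2.67% of all genes), and 0 had 1 or more (2.58%). They had an unadjusted p under 0.05 on the lower side, which 1.49% of all genes had, and 0 members had one on the higher side, where the share of all genes was 1.51%. With both libraries that stand apart left out, the members on the lower side were 4, Fbn1 being the added one, and the share of all genes there was 4.01%. Over all genes, limma called 0 at the adjusted threshold and 507 had an unadjusted p under 0.05. Voom on the recovered reads also called 0.

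In the C462A knock-in against p53 KO, 8 of the 10 members were below 0, with a median of -0.67 against 0.01 over all genes, of which 48.8% were below 0. Eln and Mfap5 were the 2 members lower without overlap, a share of members close to the 14.4% of all genes that were, and 0 were higher without overlap, against 14.1%. The same 2 had log2 differences of -1 or less (4.21% of all genes), and 0 had 1 or more (5.18%). They were also the 2 with an unadjusted p under 0.05 on the lower side, against 5.44% of all genes, and 0 members had one on the higher side, against 4.98%. With both libraries that stand apart left out, 3 members were on the lower side, Fbn1 again being the added one, against 3.87% of all genes. Limma called 0 of all genes and 1761 had an unadjusted p under 0.05; voom called 0. Both comparisons share the 3 p53 KO libraries, so the low values of Eln and Mfap5 in both are not independent of each other.

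Between the Mdm2 genotypes, 4 of 10 members were lower in the C462A knock-in and 6 higher, with a median of 0.05 against 0.01 over all genes, of which 48.3% were lower. Mfap5 and Fbln2 were lower without overlap, which 17.1% of all genes were, and 0 members were higher without overlap, against 15.8%. A log2 difference of -1 or less was seen in 0 members (2.29% of all genes) and one of 1 or more in 1, Eln (3.4%). No member had an unadjusted p under 0.05 (1.78% of all genes on the lower and 1.2% on the higher side). With both libraries that stand apart left out, 1 member (Mfap5) had one on the lower side, against 1.59% of all genes, and 1 (Fbn2) on the higher side, against 1.8%. Limma called 0 genes, 503 had an unadjusted p under 0.05, and voom called 0. The widest interval was that of Mfap4, from -3.27 to 4.63, and the narrowest that of Mfap5.

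**Figure D2:**
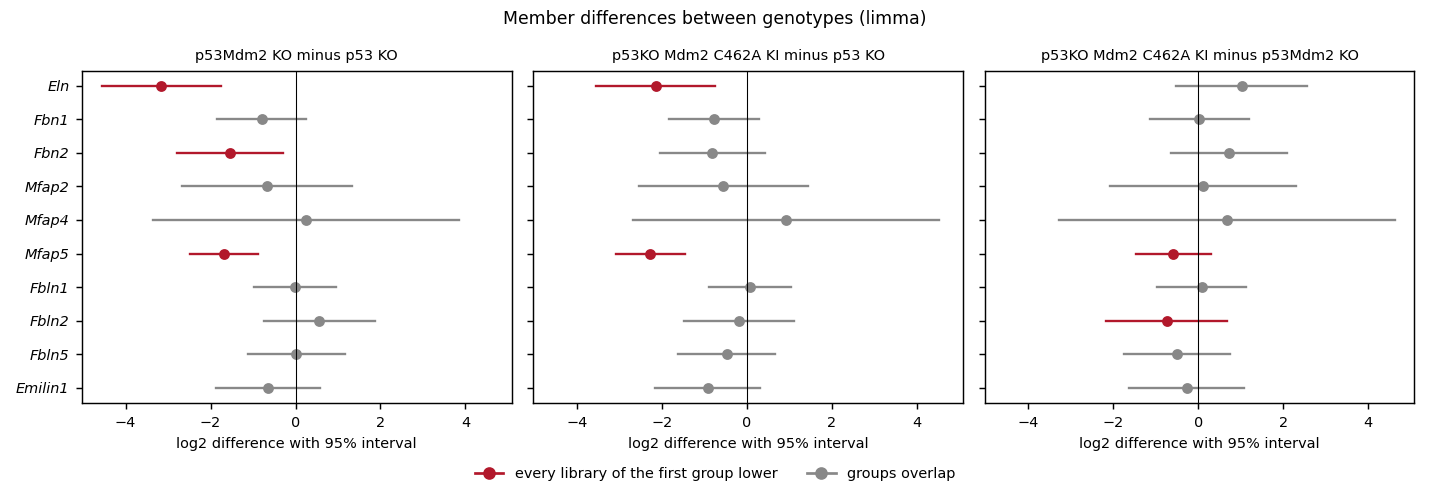
Log2 differences of the 10 members in the 3 comparisons, as points with 95% intervals from limma; red marks members for which every library of the first-named genotype was below every library of the other, grey those that overlapped. Eln and Mfap5 are red with intervals below 0 against p53 KO in both Mdm2 genotypes, and Fbn2 in p53Mdm2 KO (-2.78 to -0.30).

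Ratios between members within a library do not depend on how the libraries were scaled. Eln had 205.2, 40.0 and 74.2 reads per 1000 reads of Fbn1 in p53 KO replicates 1, 2 and 3. It had 27.8 and 9.02 in p53Mdm2 KO and 25.7 and 40.8 in the C462A knock-in. The p53Mdm2 KO libraries were below all of p53 KO, while C462A knock-in replicate 2 was level with p53 KO replicate 2. Against Emilin1, whose product also binds elastin, the p53 KO libraries were closer together, with 540.3, 611.2 and 713.0 Eln reads per 1000 Emilin1 reads. The p53Mdm2 KO libraries had 153.3 and 70.6 and the C462A knock-in libraries 132.2 and 518.1, all below p53 KO.

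Fbln2 gave a ratio that ran the other way. It had 1295, 1775 and 1083 reads per 1000 reads of Fbn1 in p53 KO and 3324 and 3660 in p53Mdm2 KO, without overlap. The C462A knock-in libraries had 2631 and 1583, so that replicate 2 lay inside the p53 KO range. Fbln5 per 1000 Fbn1 was likewise higher in p53Mdm2 KO (952.9 and 735.5) than in p53 KO (542.6, 445.3 and 444.4), with 858.1 and 397.4 in the C462A knock-in. The balance of the MAGP genes did not follow genotype: Mfap5 per 1000 Mfap2 was 1166, 375.9 and 411.0 in p53 KO, 147.7 and 498.2 in p53Mdm2 KO, and 52.96 and 491.3 in the C462A knock-in. Mfap5 per 1000 Fbn1 was 43.4, 10.3 and 15.4 in p53 KO, 9.22 and 10.8 in p53Mdm2 KO, which overlapped, and 4.73 and 8.38 in the C462A knock-in, which lay below. Fbn2 per 1000 Fbn1 overlapped between p53 KO and each Mdm2 genotype. Of 12 such ratios computed, none could reach an exact two-sided permutation p below 0.2 with 3 libraries against 2, or below 0.333 with 2 against 2.

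**Figure D3:**
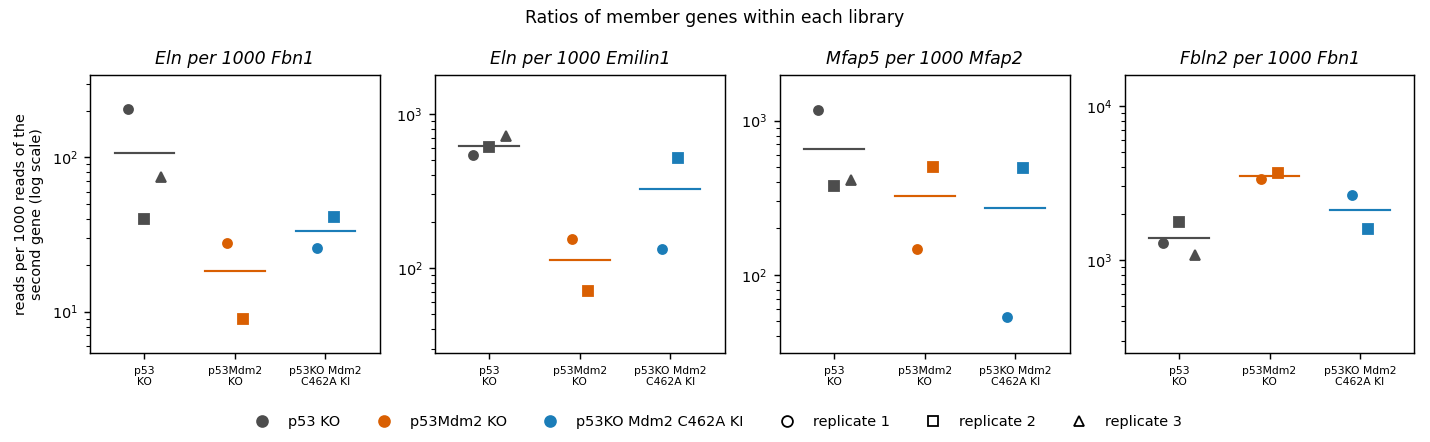
Reads of one member per 1000 reads of another in each library (log scale), by genotype; symbols give the replicate number and bars the group mean. Eln per 1000 Emilin1 lies between 540.3 and 713.0 in p53 KO and below that in the other 4 libraries, and Fbln2 per 1000 Fbn1 is highest in p53Mdm2 KO.

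Levels of different genes were compared per 1000 bases of the longest coding transcript in GENCODE M21. In p53 KO, Fbln2 led with 19509 ± 10539 normalized reads per 1000 bases (SD, n = 3), followed by Fbn1 with 5580 ± 2444 and Fbln5 with 5283 ± 1913, whose ranges overlapped. Emilin1 (2325), Mfap4 (2144), Mfap2 (2076), Fbn2 (1996), Eln (1422) and Fbln1 (1150) followed, each overlapping its neighbour, and Mfap5 was last at 796.9 ± 212.7, below Fbln1 in every library. In p53Mdm2 KO, Eln was last at 175.1 ± 138.9 (n = 2), overlapping Mfap5 at 233.4 ± 2.44. In the C462A knock-in, Mfap5 was last at 155.8 ± 61.3 (n = 2), below Eln at 309.2 ± 99.5 in both libraries. Together the 10 members took 0.367% to 0.779% of the reads of a p53 KO library, 0.523% and 0.627% in p53Mdm2 KO and 0.354% and 0.570% in the C462A knock-in, so their summed share overlapped between p53 KO and each Mdm2 genotype.

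The transcripts whose profiles over the 7 libraries were closest to Eln, among 12858 genes with a mean of at least 100 normalized reads, were Notch3, Hddc3, Arrdc4, Col18a1 and Rspo3. Their mean absolute differences from Eln, on centred log2 values, were 0.54, 0.58, 0.59, 0.60 and 0.60. Closest to Mfap5, the member with the smallest unadjusted p, were Mrvi1 (0.30), Synm (0.36), Adra1d (0.37), Dysf (0.38) and Sbsn (0.38). Synm had 570.8, 504.9 and 427.1 normalized reads in p53 KO, 107.6 and 108.2 in p53Mdm2 KO, and 92.2 and 65.3 in the C462A knock-in, all below p53 KO as for Mfap5. Among the members themselves, Fbln2 and Fbln5 were the closest pair at 0.31.

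Beyond the members, 57 genes of the elastic fibre pathway were followed in 8 lists, and 51 of them passed the filter. None passed the adjusted threshold in limma in any comparison. In p53Mdm2 KO against p53 KO, 32 of 51 lay below 0 (51.8% of all genes) with a median of -0.22. An unadjusted p under 0.05 was seen in 2 on the lower and 2 on the higher side (1.49% and 1.51% of all genes). In the C462A knock-in, 35 of 51 lay below 0 (48.8% of all genes) with a median of -0.31, and the counts were 9 lower and 3 higher (5.44% and 4.98% of all genes). Between the Mdm2 genotypes the counts were 2 lower and 0 higher (1.78% and 1.2% of all genes), with a median of -0.12. With both libraries that stand apart left out, the counts were 6 lower and 3 higher in p53Mdm2 KO (4.01% and 2.44% of all genes). In the C462A knock-in they were 7 lower and 7 higher (3.87% and 3.53% of all genes). The medians were then -0.31 and -0.19, and that between the Mdm2 genotypes turned to 0.14.

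Lysyl oxidases, which crosslink elastin and collagen, had a list median of -0.58 in p53Mdm2 KO and of -1.11, the lowest of the 8 lists, in the C462A knock-in. There 3 of 5 oxidases (Lox, Loxl1 and Loxl4) had an unadjusted p under 0.05 in limma on the lower side (5.44% of all genes). With both libraries that stand apart left out, these were Lox, Loxl2 and Loxl4 (3.87% of all genes). Lox had 82821, 99429 and 131918 normalized reads in p53 KO, 60483 and 77889 in p53Mdm2 KO, and 48845 and 46083 in the C462A knock-in. The 3 genotypes did not overlap for Lox, with p53 KO highest and the C462A knock-in lowest (log2 differences -0.58 and -1.12 from p53 KO, limma adjusted p = 1.00 and 0.437). Loxl1, the oxidase most tied to elastin, had log2 differences of -0.67 and -1.11, which were -0.39 and -0.42 with both libraries that stand apart left out. Loxl4 had -0.69 and -1.81, and -0.30 and -1.60 without them.

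Among the remaining fibulins, which include the hemicentins, 3 of 5 lay below p53 KO in each Mdm2 genotype (51.8% and 48.8% of all genes). Hmcn1 had log2 differences of -1.07 and -0.97, and Hmcn2 had 0.69 and 0.88 at no more than 31.8 normalized reads in any library. Efemp1 and Fbln7 had the list's largest log2 differences in p53Mdm2 KO, 2.59 and -2.68, both without overlap. Without p53 KO replicate 1 these were 1.18 and -1.22. All 4 latent TGF-beta binding proteins, relatives of the fibrillins that tether TGF-beta to microfibrils, lay below 0 in both comparisons (51.8% and 48.8% of all genes). Their medians were -0.60 and -0.56, but Ltbp1 in p53Mdm2 KO and Ltbp4 in the C462A knock-in were at -0.05. Ltbp3 moved from -0.55 to -0.11 in p53Mdm2 KO without p53 KO replicate 1. Ltbp2 had -0.68 and -0.80. Of the emilin relatives, 3 of 3 were below 0 in p53Mdm2 KO and 2 of 3 in the C462A knock-in (again 51.8% and 48.8% of all genes). Mmrn2, at no more than 50.0 normalized reads in any library, had -1.06 and -0.55, the latter being -0.19 without both libraries that stand apart.

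Genes of fibrillin binding and fibre assembly were mixed, with 6 of 9 below 0 in p53Mdm2 KO and 5 of 9 in the C462A knock-in (51.8% and 48.8% of all genes). Adamtsl5, whose product binds fibrillin microfibrils, was higher in both Mdm2 genotypes, with 1508, 1391 and 1298 normalized reads in p53 KO, 2311 and 1960 in p53Mdm2 KO, and 2244 and 1970 in the C462A knock-in. Each Mdm2 genotype lay above p53 KO without overlap, and the Mdm2 genotypes overlapped each other (log2 differences 0.60 and 0.58, limma adjusted p = 1.00 and 0.437). Fkbp10, which encodes a chaperone of tropoelastin and collagen in the endoplasmic reticulum, had -0.30 and -0.72, and Adamts10 had -0.26 and -0.50. The last value was -0.29 without C462A knock-in replicate 2.

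Of the growth factors held by microfibrils, 5 of 7 and 6 of 7 lay below p53 KO (51.8% and 48.8% of all genes). Tgfb2 had 3472, 1728 and 3590 normalized reads in p53 KO, 859.2 and 1714 in p53Mdm2 KO, and 614.4 and 1376 in the C462A knock-in. The p53 KO range thus lay just above the others (log2 differences -1.18 and -1.57, limma adjusted p = 1.00 and 0.437). Integrin receptors had medians of 0.03 and -0.22, and the fibronectin receptor subunit gene Itga5 had log2 differences of -0.17 and -1.15. It was 1 of the 2 genes with an unadjusted p under 0.05 between the Mdm2 genotypes, Timp1 being the other. Proteases and their inhibitors had medians of 0.13 and 0.01. Timp1, an inhibitor of metalloproteinases, had -0.21 and -1.45, the latter being -0.77 without C462A knock-in replicate 2. Ctsl, the gene of a lysosomal protease, had 13082 to 31115 normalized reads in p53 KO, 42711 and 22239 in p53Mdm2 KO, which overlapped p53 KO, and 45103 and 54618 in the C462A knock-in, which did not. Its log2 difference of 0.46 in p53Mdm2 KO was 0.07 without p53 KO replicate 1.

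**Figure D4:**
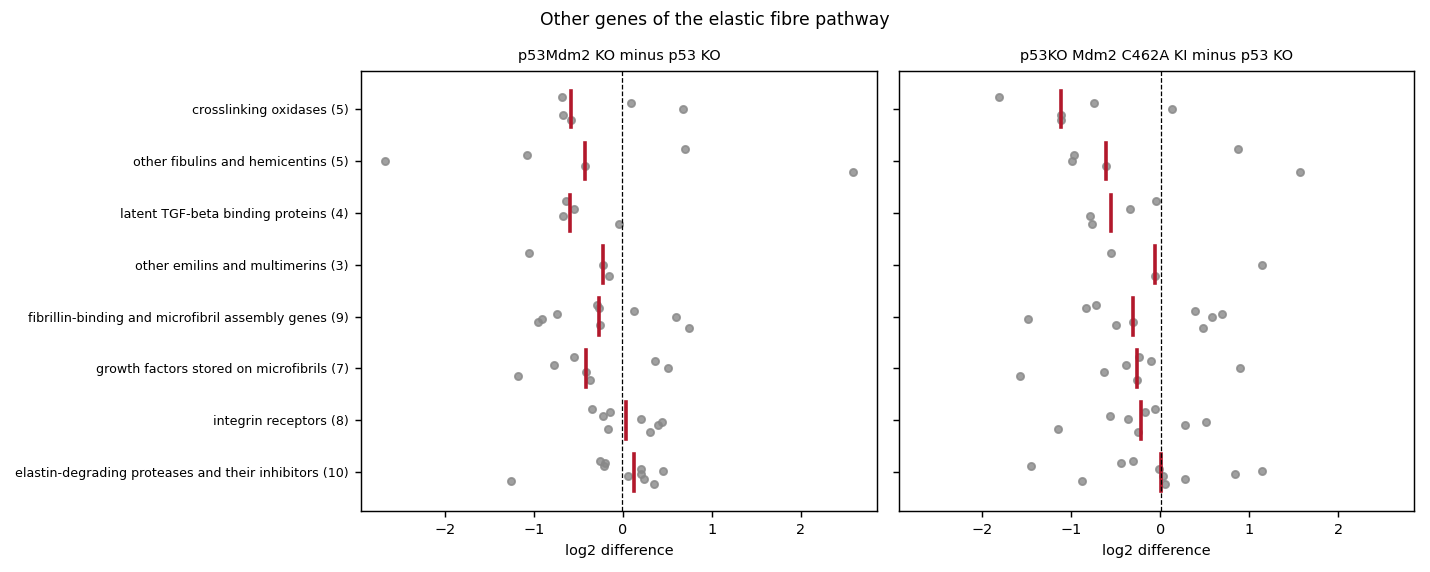
Log2 differences from p53 KO of the 51 tested pathway genes (grey points, one per gene) in 8 lists, with the number of genes in brackets, for p53Mdm2 KO and for the C462A knock-in; red bars mark list medians and dashed lines the median of all genes tested. The lysyl oxidase list has the lowest median in the C462A knock-in panel (-1.11), and the protease list lies close to the dashed line in both.

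Markers of other cell types also differed between libraries. The 9 smooth muscle genes on the list summed to between 126921 and 303862 normalized reads in p53 KO, 146802 and 188758 in p53Mdm2 KO, and 92153 and 96838 in the C462A knock-in. Of these 9, 7 and 8 had a log2 difference below 0 in the respective comparisons (51.8% and 48.8% of all genes). In limma, 0 and 4 had an unadjusted p under 0.05 on the lower side (1.49% and 5.44% of all genes). In p53 KO replicate 1 the sum was 126921, below both p53Mdm2 KO libraries, and Acta2 (76654) and Tagln (37197) made up most of it. Myh11 (175.4) and Myocd (5.45) had their lowest values of the 7 libraries there. Smtn (7858) had its highest, as did Eln (6802) and Mfap5 (1440). The 6 mesothelial markers ran from 2193 to 10522 in p53 KO, from 3423 to 14300 in p53Mdm2 KO and from 2756 to 33249 in the C462A knock-in, with the highest sum in replicate 2. Macrophage markers summed to 2643 or less in every library, epithelial markers to 370.8 or less and endothelial markers to 1070 or less. The endothelial sum of both p53Mdm2 KO libraries lay above every p53 KO library, and Kdr (693.1 and 994.0) made up most of it. Tek, Emcn and Vwf had log2 differences of -0.14, -0.19 and 0.42 in that comparison, and Pecam1 and Cdh5 did not pass the filter. The chondrocyte and osteoblast list ran from 1683 to 4742 and the adipocyte list from 2825 to 8446. Their markers Matn1 and Plin1 had 0 reads in every library. The highest adipocyte sum was that of p53 KO replicate 1, where Pparg had 3048 and Fabp4 4328 normalized reads. In the other 6 libraries these had 263.7 or less and 174.5 or less. Lpl (1066) and Cd36 (1.82), by contrast, had their lowest values of the 7 libraries in p53 KO replicate 1, and Adipoq did not pass the filter. The part of all these cell type markers in the values of Eln, Mfap5 and Fbn2 was not tested.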

How the data were processed

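The labels give a TruSeq RNA library from total RNA and single reads of 50 bp. Reads were demultiplexed with CASAVA 1.8.2, per the labels' protocols. Bowtie2 2.1.0, DESeq 1.14.0 and mm9 stand in the submitters' processing notes without roles. How reads were counted, and with which annotation and strand setting, is not given in the sources used here. The deposited values behave as log2-like numbers from a variance-stabilizing step, inferred from the shared value of 3.36 at 0 reads. Inverting it gave normalized reads, and 1 step per library gave whole reads (100% of values within 0.05 of a whole number).

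Limma 3.58.1 (R 4.3.3) with a mean-variance trend was fitted to the deposited values of all 7 libraries by group (4 residual degrees of freedom), for 16900 genes with a mean of at least 10 normalized reads, two-sided, with Benjamini-Hochberg adjustment. The log2-like scale understates changes of genes with few reads. The fit was tested on simulated data with the spread of each gene. Of 50 genes given a log2 change of 1, it recovered 5 to 7 at the adjusted threshold, depending on the comparison. At a log2 change of 2 it recovered 23 to 30 of 50, and 6 to 10 unchanged genes were called. A count of 0 genes called therefore does not show that genes were unchanged. Members and lists were chosen with earlier results of these data known. All 10 members are described; each pathway list names up to 3 genes with the smallest unadjusted p under 0.05; profiles nearest to Eln and to the member with the smallest p name 5 each. Single genes of the marker lists, and Efemp1, Fbln7, Ltbp1, Ltbp3, Ltbp4 and Loxl2, were named after their values were seen. Without strand, reads of antisense genes cannot be told apart: in GENCODE M21, exons of Eln, Fbn1, Fbn2 and Mfap4 overlap opposite-strand exons by 152, 2442, 129 and 89 bases. Alternatives covered the pseudocount, scaling, filter, variance model, sample weights, samples fitted, a replicate block and leaving out each library; leaving out both libraries that stand apart was chosen after seeing the data.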

Additional observations from a re-analysis of the deposited data

How the results depend on the processing

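No member passed the adjusted threshold under any of 18 alternatives, and the signs of Eln, Fbn2, Mfap5 and Fbn1 against p53 KO held in all of them. Values below are log2 differences. In p53Mdm2 KO against p53 KO, Fbln1 (main value -0.00) turned to 0.04 when scaled to total reads, 0.04 by voom and 0.01 with the replicate block, Mfap4 to -0.82 and Fbln5 to -0.27 with sample weights, and Mfap4 to -1.13 and Fbln5 to -0.33 with both libraries that stand apart left out. The last setting called 1 gene, Ifi202b (limma adjusted p = 0.0315), chosen for mention after its value was seen. In the C462A knock-in against p53 KO, Mfap4 turned to -0.14 with sample weights, and leaving out both libraries gave 0.25 for Mfap2 and 0.01 for Emilin1. Between the Mdm2 genotypes it gave 0.06 for Fbln5 and 0.37 for Emilin1. The cause was not tested.

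Leaving out 1 library at a time turned signs within these ranges. In p53Mdm2 KO they were -1.52 to 0.19 for Mfap2, -1.13 to 1.46 for Mfap4, -0.53 to 0.53 for Fbln1 and -0.33 to 0.30 for Fbln5. In the C462A knock-in they were -1.73 to 0.62 for Mfap2, -0.46 to 2.00 for Mfap4, -0.45 to 0.59 for Fbln1, -0.66 to 0.21 for Fbln2 and -1.04 to 0.08 for Fbln5. Between the Mdm2 genotypes they were -0.08 to 0.13 for Fbn1, -1.07 to 1.29 for Mfap2, -0.54 to 1.89 for Mfap4, -0.46 to 0.61 for Fbln1, -1.05 to 0.06 for Fbln5 and -0.92 to 0.37 for Emilin1. Where a genotype keeps 1 library, it is assumed to vary like the others. Limma called 0 genes in each comparison without any 1 library.

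Over all tested genes, deviations from the group means of libraries with the same number correlated between -0.16 and 0.20. In a genotype with 2 libraries these deviations mirror each other, so the correlations cannot decide whether replicate numbers pair the libraries. Fbn1, Fbn2, Mfap2, Mfap4, Fbln1, Fbln2, Fbln5 and Emilin1 were higher in replicate 1 than in replicate 2 of both Mdm2 genotypes. Eln was so only in p53Mdm2 KO, and Mfap5 in neither. The cause was not tested. With the replicate block 0 genes and 0 members were called in each comparison, and Eln was at -3.02 in p53Mdm2 KO and Mfap5 at -1.59 and -2.18 against p53 KO. Voom moved the median of all genes in the C462A knock-in by 0.106, the largest shift of the scalings.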
